A study of Rattus norvegicus with 65 samples.

Results

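The genes of the DNA topoisomerases and of the tyrosyl-DNA phosphodiesterases, the enzymes that free a topoisomerase trapped on DNA, were followed in primary neonatal rat cardiomyocytes exposed to 3 drugs. They were chosen by name and not by a rule on their values, but with earlier results of these data known. Of 8 listed genes, 7 (Top1, Top1mt, Top2a, Top3a, Top3b, Tdp1 and Tdp2) had a row in the table of 14554 genes, and Top2b was not analysed here. Cells received 10 mM 5-fluorouracil (5FU), 2.5 mM acetaminophen (Ace) or 1.25 uM doxorubicin (Dox) for 6 or 24 h, with DMSO1 as the control of 5FU and DMSO2, which contains less DMSO, as the control of Ace and Dox. At 6 h there were 6 libraries each of 5FU, Ace and DMSO1 and 7 each of Dox and DMSO2, and at 24 h there were 6 each of 5FU and DMSO1 and 7 each of Ace, Dox and DMSO2. All cells were kept in plating medium and then overnight without serum before exposure. Because hearts of more than 1 litter were pooled into one preparation, libraries of a group are parallel cultures, and p-values measure the spread between cultures, not between animals.

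Topoisomerases let DNA strands pass through each other by cutting the backbone, holding the cut end through a tyrosine of the enzyme, and resealing it. Type I enzymes cut a single strand and type II enzymes cut both. Top2a, a type II enzyme, is made mainly in dividing cells and separates chromosomes at mitosis. Doxorubicin is a known poison of type II topoisomerases, which it holds on the cut DNA, and it also inserts between bases. Tdp1 is best known for clearing the remains of Top1, and Tdp2 for clearing those of type II enzymes.

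The libraries held 14332827 to 25738297 counts, the highest total being in Dox 24 h library 7 (libraries are numbered within a group as labels only). Levels are CPM, the usual count relative to sequencing depth, with the library total scaled by the trimmed mean of M-values (TMM). Transcript lengths were not used here, so levels are compared within a gene and not between genes. Each gene was tested with edgeR's quasi-likelihood test in 1 model of all 10 groups, and a gene is called at a false discovery rate (FDR) below 0.01 over all 14554 genes. The 7 genes had at least 42 counts in every library. Of 9 cardiomyocyte markers in the table, none was at 0 in every library of any group, and their summed level in the DMSO2 libraries was 44268 to 48906 CPM at 6 h and 37887 to 49260 CPM at 24 h. Markers of fibroblasts, endothelial cells, macrophages, and smooth muscle cells and pericytes were also present, again with none at 0 in every library of a group.

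The stretches of DNA just before the start of Top2a, Tdp1 and Top1 are shown as examples among the genes whose effect differed between drugs and times. The sequences are from RefSeq, build GRCr8, written 5' to 3' on the strand of the gene. The Top2a stretch is chr10:84473094-84473343 on the minus strand, the Tdp1 stretch is chr6:124892624-124892820 on the plus strand, and the Top1 stretch is chr3:169712945-169713194 on the plus strand. Capitals mark matches, on either strand, to CCAAT (the CCAAT box), TTTGAA (the cell cycle homology element) and GGGCGG (the GC box), which were chosen from textbook knowledge after the values were seen.
Top2a: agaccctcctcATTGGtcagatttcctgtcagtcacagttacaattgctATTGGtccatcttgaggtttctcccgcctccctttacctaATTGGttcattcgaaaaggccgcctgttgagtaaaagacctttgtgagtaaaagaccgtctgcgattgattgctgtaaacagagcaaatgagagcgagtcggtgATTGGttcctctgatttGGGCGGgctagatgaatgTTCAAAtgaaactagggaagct
Tdp1: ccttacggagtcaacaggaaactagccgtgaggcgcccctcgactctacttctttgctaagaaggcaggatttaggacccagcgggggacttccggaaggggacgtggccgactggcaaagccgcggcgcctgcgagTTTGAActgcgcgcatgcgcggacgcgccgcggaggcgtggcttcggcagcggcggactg
Top1: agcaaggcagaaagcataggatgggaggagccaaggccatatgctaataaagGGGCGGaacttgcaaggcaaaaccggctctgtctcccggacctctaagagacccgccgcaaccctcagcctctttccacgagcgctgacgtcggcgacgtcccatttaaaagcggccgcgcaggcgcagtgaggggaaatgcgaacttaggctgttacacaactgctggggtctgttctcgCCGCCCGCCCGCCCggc
The Top2a stretch held 4 CCAAT matches, 1 TTTGAA match and 1 GGGCGG match in 250 bases. The Top1 stretch of the same length held 4 GGGCGG matches, 3 of which overlapped each other, and neither of the other motifs. The Tdp1 stretch held 1 TTTGAA match in the 197 bases that separate it from Efcab11, its neighbour on the other strand. The effect also differed between drugs and times for Top1mt and Top3a, which are not shown. No such stretch was available for Top1mt, and the 250 bases before Top3a held 0 matches to each motif. Over 33469 windows of 250 bases before gene starts, 34.0% held CCAAT, 16.2% held TTTGAA and 30.5% held GGGCGG. A match is a description of the letters and not a measured binding site.

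In Dox, 6 of the 7 genes were called at 6 h and 6 at 24 h, 3 higher and 3 lower each time. A fit of the compared groups only called 4 at 6 h, without Top3a and Top3b, and DESeq2, its size factors, library size only and filterByExpr (edgeR's filter on low counts) each called 5 at 24 h, without Top3b. Top1, Top1mt and Top3a rose and Top2a, Top3b and Tdp1 fell at both times, while Tdp2 was not called. Dox changed most of the transcriptome, so these counts are to be read against the background, in which 64.2% of all genes were called at 6 h (31.5% higher and 32.7% lower) and 81.4% at 24 h (40.4% higher and 41.0% lower).

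**Figure D1:**
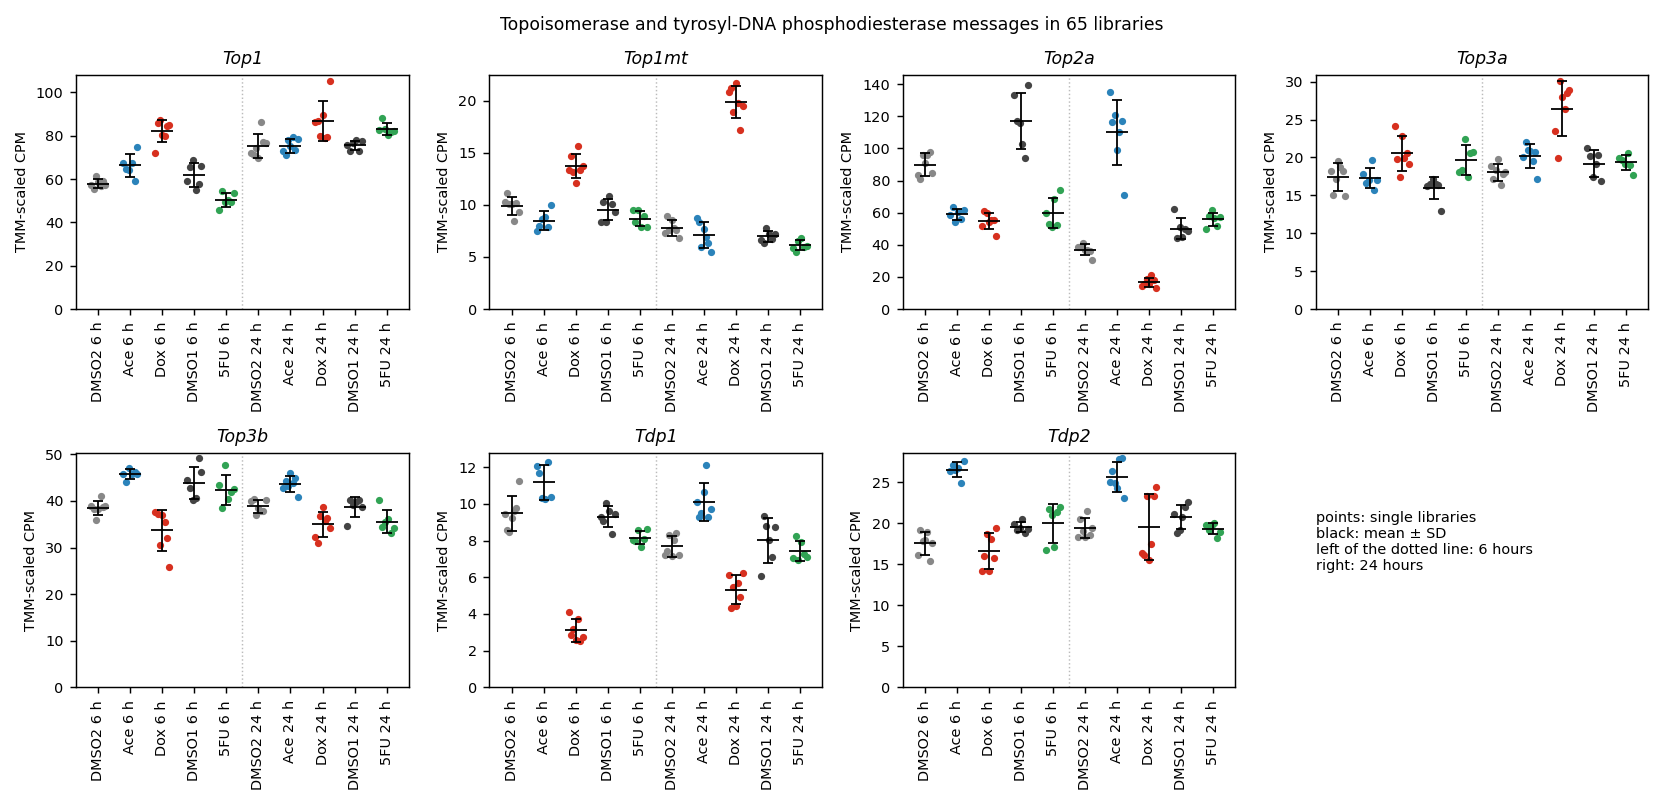
TMM-scaled CPM (vertical axis, from 0) of the 7 genes in each of the 65 libraries, by group. Points are libraries and black marks are the mean and SD; Top2a at 24 h runs from a mean of 16.7 in Dox to 110 in Ace, and Tdp1 in Dox at 6 h (2.52 to 4.12) lies below every other group.

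Top2a varied most of the 7 genes, with a ratio of 6.99 between its highest and lowest group means. In the DMSO2 libraries its lowest, median and highest levels were 80.9, 90.7 and 98.0 CPM at 6 h and 30.6, 36.7 and 41.4 CPM at 24 h. In Dox they were 45.6, 55.4 and 60.9 CPM at 6 h and 13.4, 15.6 and 21.5 CPM at 24 h. Every Dox library was therefore below every DMSO2 library at both times. The log2 fold change was -0.72 (SE 0.095, edgeR FDR = 9.1e-10) at 6 h and -1.15 (SE 0.10, edgeR FDR = 6.8e-16) at 24 h, a level 2.22-fold lower at 24 h. Without Dox library 7, which had the deepest sequencing and the lowest Top2a level, the 24 h value was -1.07.

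Ace moved Top2a in opposite directions at the 2 times. Its lowest, median and highest levels in Ace were 54.5, 59.5 and 63.4 CPM at 6 h and 70.8, 117 and 135 CPM at 24 h. The 6 h libraries lay below and the 24 h libraries above all DMSO2 libraries of their time. The log2 fold change was -0.60 (SE 0.098, edgeR FDR = 7.6e-07) at 6 h and 1.57 (SE 0.097, edgeR FDR = 2.1e-21) at 24 h, and the difference between the times was 2.18 (SE 0.14, edgeR FDR = 1.8e-19). Ace library 7 was the lowest of its group at 24 h, and leaving out any 1 library gave values between 1.52 and 1.65.

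In 5FU, Top2a fell at 6 h and was not called at 24 h. Levels at 6 h were 50.9, 56.5 and 73.9 CPM (lowest, median and highest) in 5FU and 94.0, 116 and 140 CPM in DMSO1, without overlap. At 24 h they were 49.6, 57.0 and 61.4 CPM in 5FU and 44.1, 49.2 and 62.1 CPM in DMSO1, and the ranges overlapped. The log2 fold change was -0.97 (SE 0.10, edgeR FDR = 1.5e-12) at 6 h and 0.15 (95% interval -0.05 to 0.36, edgeR FDR = 0.19) at 24 h, and the difference between the times was 1.12 (SE 0.14, edgeR FDR = 2.0e-09).

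The controls themselves set much of the Top2a scale. From 6 to 24 h Top2a fell by 1.25 on the log2 scale in the DMSO controls (SE 0.070, edgeR FDR = 2.0e-24). It was also higher in DMSO1 than in DMSO2, by 0.38 at 6 h (SE 0.096, edgeR FDR = 0.0019), a call lost without DMSO1 library 6 (0.33) and with library size only (0.29), and by 0.44 at 24 h (SE 0.10, edgeR FDR = 0.011), where it was not called although the ranges did not overlap. The order of the group means was DMSO1 6 h, Ace 24 h, DMSO2 6 h, 5FU 6 h, Ace 6 h, 5FU 24 h, Dox 6 h, DMSO1 24 h, DMSO2 24 h and Dox 24 h. Only 3 pairs of neighbours in that order had ranges that did not overlap, namely DMSO2 6 h above 5FU 6 h, DMSO1 24 h above DMSO2 24 h and DMSO2 24 h above Dox 24 h.

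Genes of proliferating cells gave the setting for Top2a. Of 11 such genes in the table (among them Mki67, Cdk1 and Bub1), 8 fell and 1 rose in Dox at 6 h (median log2 fold change -0.65), 9 fell in 5FU at 6 h (median -0.93), 8 fell in Ace at 6 h (median -0.65), and 10 rose in Ace at 24 h (median 0.87). Among all genes, 32.7% were called lower in Dox, 24.5% in 5FU and 15.2% in Ace at 6 h, and 18.2% higher in Ace at 24 h. All 11 listed genes fell over time in the controls, with a median of -0.96, beside 31.9% of all genes called lower. In Dox at 24 h the list was split, with 3 higher and 4 lower and a median of -0.061, beside a median of 0.0028 over all genes. The shares of all genes called there were 40.4% higher and 41.0% lower. Cdk1, the kinase that starts mitosis, fell by 1.71 and Bub1, a kinase of the spindle checkpoint, fell by 0.83 on the log2 scale, whereas Hmmr, a spindle-associated hyaluronan receptor, rose by 2.13 and Plk1, a mitotic kinase, by 0.81.

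Condensin, the ring complex that works beside Top2a in compacting chromosomes, was measured through 8 genes. In Ace at 24 h 7 rose (median 1.03), in 5FU at 6 h 6 fell (median -0.57), and over time in the controls 7 fell (median -0.88). Of all genes, 18.2% were higher in Ace at 24 h, 24.5% lower in 5FU at 6 h and 31.9% lower over time. In Dox at 6 h, where Top2a fell, 1 rose and 2 fell (median 0.051), beside 31.5% and 32.7% of all genes. In Ace at 6 h, where Top2a also fell, 1 rose and 1 fell (median 0.065), beside 16.5% and 15.2%. In 5FU at 24 h 3 rose and 2 fell (median 0.064), beside 28.0% and 27.8%. In Dox at 24 h 4 rose and 2 fell (median 0.20), beside 40.4% and 41.0% of all genes. Ncapd3 was at 0.89, Ncaph at 0.76, Ncapg2 at -0.64 and Smc2 at -0.45. Top2a in Dox at 24 h, at -1.15, was thus below all 8 condensin genes.

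**Figure D2:**
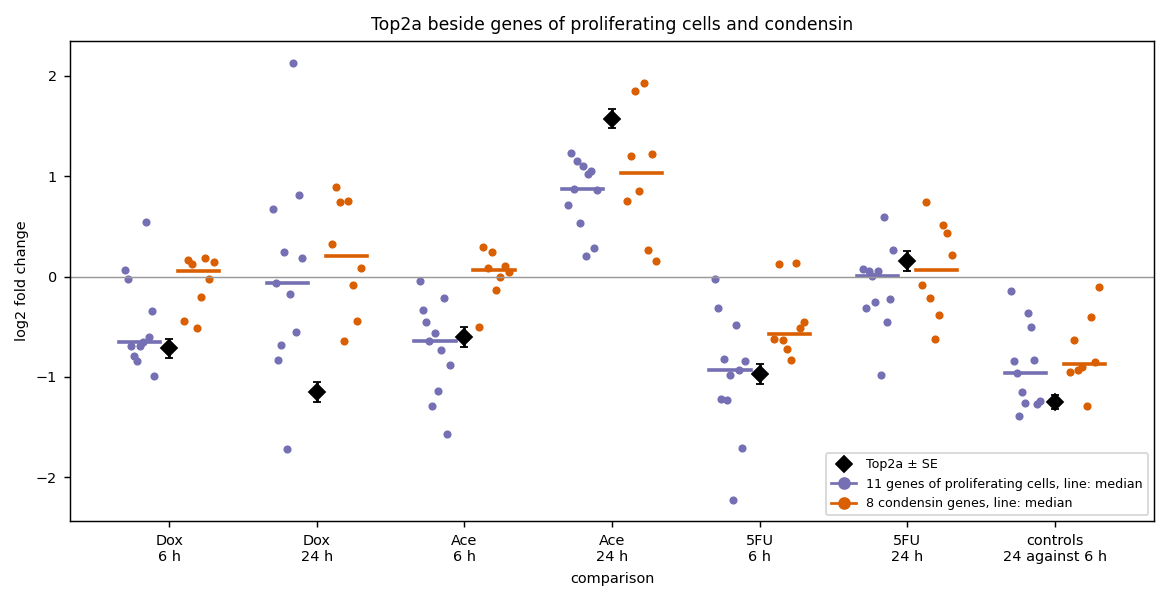
Log2 fold change (vertical axis) of Top2a (black diamonds with SE), 11 genes of proliferating cells and 8 condensin genes (points, with a line at each median) in the 6 drug comparisons and over time in the controls. Top2a and both lists are high in Ace at 24 h, whereas in Dox at 24 h Top2a is at -1.15 and the list medians are at -0.061 and 0.20.

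Markers of cell types also moved in these comparisons, and in 5FU at 24 h, where Top2a was not called. In Dox at 24 h all 9 fibroblast and all 7 endothelial markers fell, as did 7 of 8 macrophage markers, 7 of 9 cardiomyocyte markers and 3 of 6 smooth muscle and pericyte markers. Those that rose were the macrophage marker Cd14 (0.66 on the log2 scale), the cardiomyocyte marker Nppa (3.52) and the smooth muscle markers Myh11 (2.69) and Tagln (1.75), named after their values were seen. The shares of all genes called in Dox at 24 h were 41.0% lower and 40.4% higher. Summed fibroblast markers were at 1941 to 4090 CPM in Dox and 15146 to 18943 CPM in DMSO2, and summed endothelial markers at 23.5 to 52.2 CPM and 269 to 359.5 CPM. In Ace at 24 h, where Top2a rose, 8 of 9 fibroblast and 7 of 8 macrophage markers fell, with fibroblast sums of 7292 to 9321 CPM. There 4 of 7 endothelial and 4 of 6 smooth muscle and pericyte markers also fell, and 2 of 9 cardiomyocyte markers rose and 2 fell. The shares of all genes called there were 18.2% higher and 19.1% lower. At 6 h, where Top2a fell with all 3 drugs, 7 of 7 endothelial and 6 of 9 fibroblast markers fell in Dox, 7 of 9 fibroblast and 3 of 7 endothelial markers in Ace, and 3 of 9 and 3 of 7 in 5FU, with no marker of either list called higher. The shares of all genes called lower at 6 h were 32.7% in Dox, 15.2% in Ace and 24.5% in 5FU. Cardiomyocyte markers in Dox at 6 h went the other way, 5 of 9 rising and 2 falling, beside 31.5% of all genes higher. Of 6 smooth muscle and pericyte markers 3 rose and 2 fell in Dox at 6 h, and of 8 macrophage markers 2 rose and 2 fell. Between the controls at 6 h, where Top2a was higher in DMSO1, 7 of 9 fibroblast and 6 of 7 endothelial markers were lower there and 4 of 9 cardiomyocyte markers were higher. In that comparison 16.5% of all genes were called in either direction, 1436 higher and 961 lower of 14554. In 5FU at 24 h all 9 fibroblast and 5 of 7 endothelial markers fell and none rose, beside 27.8% of all genes lower. There 5 of 9 cardiomyocyte, 4 of 8 macrophage and 4 of 6 smooth muscle and pericyte markers also fell. In these lists 2 cardiomyocyte markers and 1 smooth muscle and pericyte marker rose, beside 28.0% of all genes higher. Over time in the controls, where Top2a fell, all 9 fibroblast and 6 of 8 macrophage markers rose and none of these fell. There 4 endothelial markers rose and 2 fell, and 1 cardiomyocyte marker rose and 5 fell, beside 32.7% of all genes higher and 31.9% lower. The part of these shifts in the levels of Top2a was not tested, and in bulk RNA fewer cells of a type and less RNA per cell cannot be told apart.

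Top1, the nuclear type I enzyme that relaxes DNA ahead of transcription and replication, rose in Dox. At 6 h its lowest, median and highest levels were 72.1, 84.5 and 87.3 CPM in Dox and 55.2, 57.1 and 61.4 CPM in DMSO2, without overlap. At 24 h they were 78.7, 86.5 and 105 CPM in Dox and 69.7, 74.2 and 86.1 CPM in DMSO2, and the ranges overlapped. For Dox the log2 fold change was 0.50 (SE 0.052, edgeR FDR = 2.5e-13) at 6 h and 0.20 (SE 0.051, edgeR FDR = 0.00023) at 24 h. The difference between the times, -0.30 (edgeR FDR = 0.00023), was not called with library size as the only scaling (-0.098).

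With the other drugs Top1 fell in 5FU at 6 h and rose in Ace at 6 h. In 5FU at 6 h it lay at 45.5, 49.8 and 54.3 CPM, below all DMSO1 libraries (55.1, 62.3 and 68.9 CPM), a log2 fold change of -0.30 (SE 0.056, edgeR FDR = 5.8e-06). In 5FU at 24 h the value was 0.14 (SE 0.055, edgeR FDR = 0.027), not called although no 5FU library (80.5 to 88.3 CPM) overlapped DMSO1 (72.7 to 77.8 CPM). In Ace it was 0.19 at 6 h (SE 0.054, edgeR FDR = 0.0023), a call lost without Ace library 6 (0.17), and 0.0043 at 24 h (95% interval -0.10 to 0.10). At 6 h, where the effects had opposite signs, Dox minus 5FU was 0.80 (SE 0.076, edgeR FDR = 3.4e-14), and at 24 h it was 0.069 (95% interval -0.08 to 0.22, edgeR FDR = 0.40), not called.

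Top1mt, the type I enzyme of mitochondria, rose in Dox and was not called in 5FU or Ace, although in Ace at 6 h (-0.23) it was called without Ace library 6 (-0.27) or DMSO2 library 5 (-0.26). In Dox its lowest, median and highest levels were 12.1, 13.3 and 15.7 CPM at 6 h and 17.2, 19.8 and 21.7 CPM at 24 h. In DMSO2 they were 8.41, 10.1 and 11.1 CPM at 6 h and 6.78, 7.62 and 8.92 CPM at 24 h. No library of Dox overlapped its control, and Dox 24 h and Dox 6 h were the highest groups, each with a range apart from the next. Dox changed it by 0.47 on the log2 scale (SE 0.078, edgeR FDR = 3.5e-07) at 6 h and 1.35 (SE 0.079, edgeR FDR = 1.7e-24) at 24 h, a 2.55-fold higher level, and grew by 0.89 between the times (SE 0.11, edgeR FDR = 1.4e-10). The Dox effect exceeded the 5FU effect by 0.60 (SE 0.12, edgeR FDR = 9.9e-06) at 6 h and by 1.55 (SE 0.12, edgeR FDR = 3.3e-18) at 24 h.

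Other genes that maintain mitochondrial DNA were measured beside Top1mt. Of 12 in the table, 6 rose and 1 fell in Dox at 24 h (median 0.32). In Dox at 6 h 3 rose and 3 fell, and over time in the controls 1 rose and 9 fell. In the comparisons where Top1mt was not called, 6 rose and none fell in Ace at 24 h (median 0.15) and 4 rose and none fell in 5FU at 24 h (median 0.14), while at 6 h 2 rose and 1 fell with each of these drugs. Polg2, the accessory subunit of the mitochondrial polymerase, rose by 1.78 and Twnk, the mitochondrial replicative helicase, by 1.43 in Dox at 24 h, while Ssbp1, the mitochondrial single-strand binding protein, fell by 0.65. Among all genes, 40.4% were called higher and 41.0% lower in Dox at 24 h, and 31.5% and 32.7% in Dox at 6 h. In Ace these shares were 18.2% and 19.1% at 24 h, and 16.5% and 15.2% at 6 h. In 5FU they were 28.0% and 27.8% at 24 h, and 23.4% and 24.5% at 6 h. Over time in the controls they were 32.7% and 31.9%.

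Top3a and Top3b are type IA enzymes. Top3a, which works with the Blm helicase to dissolve joined DNA molecules and also acts in mitochondria, lay at 19.9, 27.9 and 30.1 CPM in Dox at 24 h and at 16.3, 18.1 and 19.7 CPM in DMSO2, without overlap. This was a log2 fold change of 0.55 (SE 0.073, edgeR FDR = 4.1e-10). At 6 h it was 0.24 (SE 0.074, edgeR FDR = 0.0037), and this call was lost with library size only (0.082), in a fit of the compared groups only, and without Dox library 1 (0.19) or 4 (0.21) or DMSO2 library 2 or 7 (0.20 each). Top3a also rose in 5FU at 6 h, by 0.30 (SE 0.080, edgeR FDR = 0.0010), a call lost with library size only (0.23).

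Partners and relatives of the topoisomerases included the Top3a complex. Of 8 genes, 6 rose and none fell in Dox at 24 h (median 0.66), and 3 rose and 2 fell at 6 h. Among all genes, 40.4% were called higher and 41.0% lower in Dox at 24 h, and 31.5% and 32.7% at 6 h. Rmi2 rose by 1.97 and Rmi1 by 1.29 at 24 h; both belong to the complex of Top3a and Blm. In Ace at 24 h Rmi2 rose by 2.12 and Rmi1 by 0.20.

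Top3b, which also acts on RNA, had the narrowest spread of the 7 genes, with a ratio of 1.36 between its highest and lowest group means. It rose in Ace by 0.25 (SE 0.056, edgeR FDR = 0.00020) at 6 h, where levels were 44.0, 45.8 and 47.1 CPM against 35.9, 38.7 and 41.0 CPM in DMSO2. At 24 h the Ace value was 0.17 (SE 0.054, edgeR FDR = 0.0072), with ranges that did not overlap, and the call was lost without Ace library 4, 5 or 6 or DMSO2 library 3, 4, 5 or 6, with values of 0.16 to 0.17. In Dox the values were -0.19 (SE 0.055, edgeR FDR = 0.0013) at 6 h and -0.15 (SE 0.055, edgeR FDR = 0.0089) at 24 h. Both Dox ranges overlapped DMSO2. The 6 h call was lost without Dox library 7 (-0.14) and in the fit of the compared groups only (-0.19, edgeR FDR = 0.022). The 24 h call was lost without any 1 of the 7 Dox libraries or DMSO2 library 1, 2, 4 or 7, at -0.15 to -0.097. It was also lost with DESeq2 (-0.11, adjusted p = 0.052), DESeq2's size factors (-0.11, edgeR FDR = 0.054), library size only (-0.10, edgeR FDR = 0.11) and filterByExpr (-0.12, edgeR FDR = 0.032).

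Tdp1, which clears Top1 remnants, showed the largest fall of the 7 genes against DMSO2. In Dox at 6 h its lowest, median and highest levels were 2.52, 2.85 and 4.12 CPM, from 42 to 74 counts a library, and in DMSO2 they were 8.47, 9.47 and 11.3 CPM. At 24 h they were 4.31, 5.49 and 6.25 CPM in Dox and 7.17, 7.43 and 8.42 CPM in DMSO2. The ranges did not overlap at either time, and Dox 6 h and Dox 24 h were the lowest of the 10 groups. The log2 fold change was -1.61 (SE 0.092, edgeR FDR = 5.9e-24) at 6 h, a 3.04-fold lower level, and -0.52 (SE 0.088, edgeR FDR = 2.3e-07) at 24 h. The fall was smaller at 24 h, with a difference of 1.08 (SE 0.13, edgeR FDR = 2.9e-11).

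Neither other drug lowered Tdp1 past the threshold. In 5FU the values were -0.19 (edgeR FDR = 0.067) at 6 h and -0.11 (edgeR FDR = 0.31) at 24 h, and the Dox effect was lower than the 5FU effect by 1.42 at 6 h (edgeR FDR = 8.4e-15). At 24 h that difference was -0.42 (edgeR FDR = 0.0028), a call lost without DMSO1 library 1 (-0.35) and with library size only (-0.36). In Ace, Tdp1 was at 0.24 at 6 h (edgeR FDR = 0.020, called at 0.28 without DMSO2 library 7) and rose by 0.39 at 24 h (SE 0.084, edgeR FDR = 7.8e-05), with levels of 9.26 to 12.1 CPM above all DMSO2 libraries. Efcab11, whose start lies 197 bases away, was at -0.34 in Dox at 6 h (SE 0.25, edgeR FDR = 0.21) and rose by 1.65 in Ace at 24 h (SE 0.25, edgeR FDR = 7.2e-08), with no call in the other 4 drug comparisons. It was named after its values were seen.

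Tdp2, which clears remnants of type II enzymes, was the 1 gene of the 7 not called in Dox. Its levels in Dox were 14.1, 16.0 and 19.5 CPM at 6 h and 15.5, 17.5 and 24.5 CPM at 24 h, against 15.4, 17.9 and 19.2 CPM and 18.3, 19.0 and 21.5 CPM in DMSO2. The Dox values were -0.083 (95% interval -0.24 to 0.07) at 6 h and 0.014 (95% interval -0.14 to 0.16) at 24 h, and with library size only the 6 h value was called at -0.24. In Ace, by contrast, every library (24.8 to 27.6 CPM at 6 h and 23.1 to 27.9 CPM at 24 h) was above its DMSO2 controls. The Ace log2 fold change was 0.59 (SE 0.078, edgeR FDR = 5.5e-09) at 6 h and 0.40 (SE 0.075, edgeR FDR = 8.6e-06) at 24 h.

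**Figure D3:**
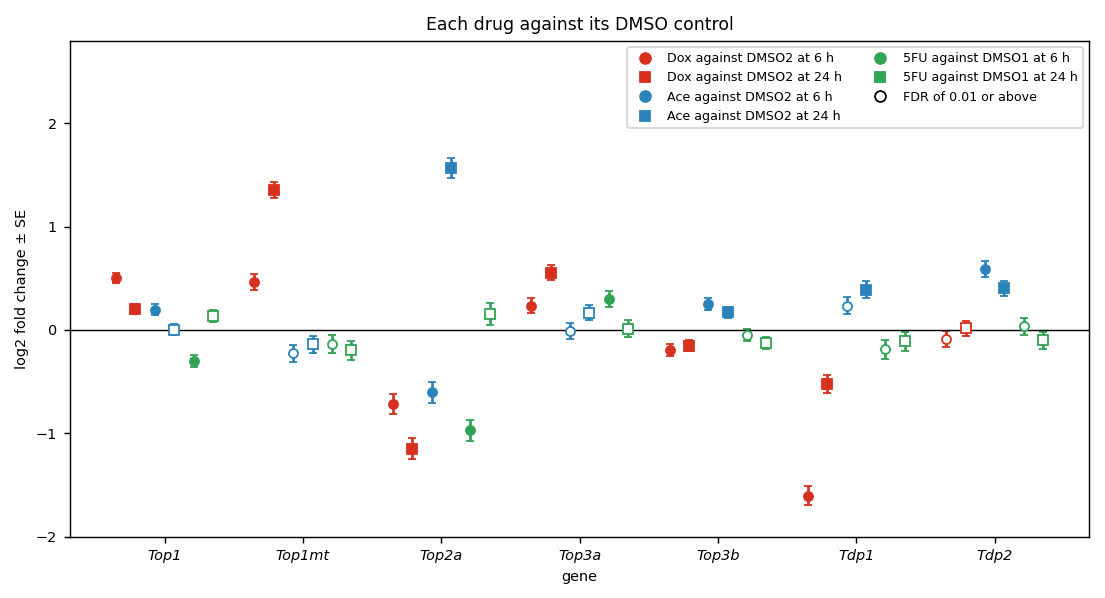
Log2 fold change with SE (vertical axis) of the 7 genes (horizontal axis) in each drug against its DMSO control, with circles for 6 h, squares for 24 h and open symbols for an edgeR FDR of 0.01 or above. The lowest value is Tdp1 in Dox at 6 h (-1.61) and the highest is Top2a in Ace at 24 h (1.57).

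The genes that release or trim DNA-bound topoisomerases made a list of 21. In Dox at 24 h 11 rose and 7 fell (median 0.15), beside 40.4% of all genes called higher and 41.0% lower, and at 6 h 9 rose and 6 fell, beside 31.5% and 32.7%. Xrcc1, a scaffold of single-strand break repair, rose by 1.51 and Fen1, a flap nuclease, by 1.15, while Ercc4, a subunit of a structure-specific nuclease, fell by 1.43 and Parp1, a sensor of DNA breaks, by 1.28. In 5FU at 24 h 10 rose and 1 fell, and in Ace at 24 h 8 rose and 3 fell, beside 28.0% higher and 27.8% lower, and 18.2% and 19.1%, of all genes.

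End joining, which repairs the double-strand breaks that trapped type II enzymes can leave, was measured through 8 genes. In Dox at 24 h 3 rose and 4 fell, with a median of -0.51, beside 40.4% of all genes called higher and 41.0% lower. Lig4, its ligase, rose by 2.52 and Dclre1c, its nuclease, by 0.95, while Prkdc, its kinase, fell by 1.54 and Xrcc5, an end-binding subunit, by 1.40. In 5FU at 24 h the list also had 3 higher and 4 lower genes, beside 28.0% of all genes called higher and 27.8% lower. In Ace 4 rose and none fell at 6 h, beside 16.5% of all genes higher and 15.2% lower. At 24 h 3 rose and none fell in Ace, beside 18.2% and 19.1%. The rise of Lig4 was not particular to Dox. It rose by 1.05 at 6 h and 0.62 at 24 h in Ace, and by 0.59 and 0.43 in 5FU.

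Over the other comparisons, the counts of called genes were as follows. In 5FU 3 of the 7 genes were called at 6 h (1 higher and 2 lower), beside 47.9% of all genes (23.4% higher and 24.5% lower). At 24 h edgeR called 0, with 3 at an unadjusted p below 0.05 and 0 by DESeq2, beside 55.8% of all genes (28.0% higher and 27.8% lower). In Ace 4 were called at 6 h (3 higher and 1 lower), beside 31.7% (16.5% higher and 15.2% lower), and 4 at 24 h, all higher, beside 37.2% (18.2% higher and 19.1% lower).

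Time and the controls were compared in the same way. Over time in the DMSO controls 5 of the 7 genes were called (Top1 and Top3a higher, Top1mt, Top2a and Tdp1 lower), beside 64.6% of all genes (32.7% higher and 31.9% lower), and the Top3a call (0.16) was lost in 15 of 26 fits that left out a library, with library size only (0.15), in the fit of the compared groups only (0.14) and with filterByExpr (0.14). Between DMSO1 and DMSO2 2 were called at 6 h, Top2a and Top3b, beside 16.5%. The Top3b call (0.19, edgeR FDR = 0.0087) was lost in 10 of 13 fits that left out a library (0.15 to 0.20), with DESeq2's size factors (0.18), with library size only (0.10) and in the fit of the compared groups only (0.18). At 24 h edgeR called 0, with 1 at an unadjusted p below 0.05 and 1 by DESeq2 (Top2a), beside 0.433%.

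The effect of a drug differed between the times for 5 genes in Dox, 2 in 5FU (Top1 and Top2a) and 1 in Ace (Top2a), beside 64.8%, 39.5% and 11.6% of all genes. The Dox and 5FU effects differed for 3 of the 7 genes at 6 h (Top1, Top1mt and Tdp1) beside 45.9%, and for 4 at 24 h (Top1mt, Top2a, Top3a and Tdp1) beside 71.1%. Dox and Ace, which share the DMSO2 control, differed directly for 6 genes at 6 h and all 7 at 24 h, beside 62.1% and 80.6%. The Top3a call at 6 h (0.24) was lost with library size only (0.12, edgeR FDR = 0.20) and without Ace library 3, 5 or 6 or Dox library 1 or 4 (0.20 to 0.22). Top2a was the gene not called between Dox and Ace at 6 h, at -0.11 (95% interval -0.30 to 0.08), and it differed by -2.72 (SE 0.10, edgeR FDR = 6.1e-34) at 24 h.

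**Figure D4:**
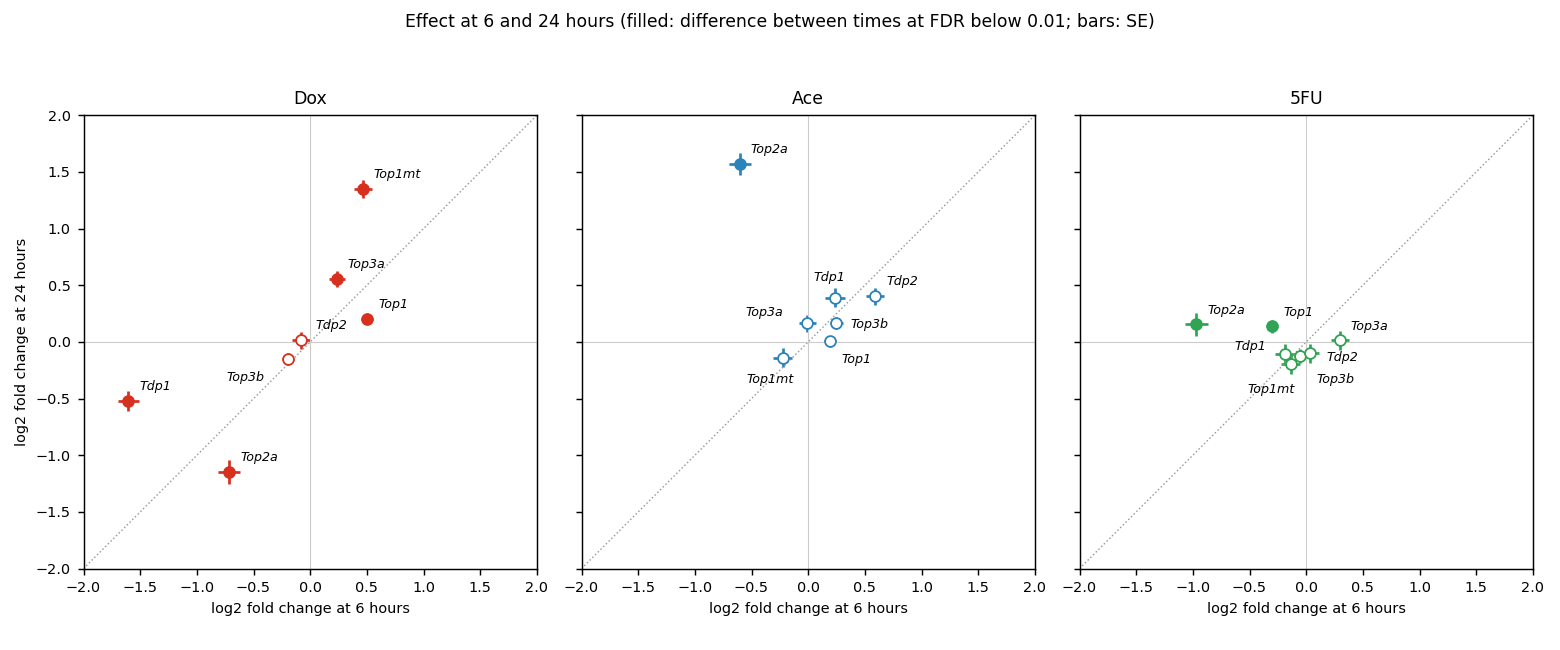
Log2 fold change at 6 h (horizontal axis) and 24 h (vertical axis) of the 7 genes with SE bars, for Dox, Ace and 5FU, with the dotted line at equal effects and filled symbols where the times differed at an edgeR FDR below 0.01. In Dox, Top1mt lies above the line (0.47 and 1.35) and Tdp1 also above it (-1.61 and -0.52), and in Ace and 5FU Top2a is the farthest from it.

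The genes whose levels most resembled each of the 7 were found by Pearson correlation of log2 CPM over the 65 libraries, among 10502 other genes that had a symbol and averaged 100 counts or more. The libraries share groups and scaling, so the values are descriptions. For Top2a they were Kif2c (0.97), Cdk1 (0.97) and Bub1 (0.95), and for Top1mt Upp1 (0.95), Id2 (0.95) and Ada (0.94). For Tdp1 they were Cep57l1 (0.92), Atxn7l3 (0.92) and Zbtb22 (0.91), and for Top1 Cul4a (0.90), Tbc1d23 (0.89) and Srsf11 (0.87). The likeness was weaker for Top3a, with Plekhm1 (0.81), Atg9a (0.81) and Etv3 (0.81), for Top3b, with Sugp2 (0.79), Hivep3 (0.78) and Eepd1 (0.77), and for Tdp2, with Malt1 (0.74), Ctnnbip1 (0.73) and Sec22a (0.70).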

How the data were processed

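Polyadenylated RNA of 65 cultures was sequenced. The authors quantified transcripts with kallisto 0.46.0 against the Ensembl rat transcriptome, summed estimates to genes and deposited whole-number counts per gene, after removing genes with low counts in all samples. Reads of near-identical transcripts are shared out by that estimate. No column of the table was left without a sample's group (0 such columns). Symbols came from RefSeq GRCr8, and 14009 of 14554 genes matched.

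Counts were fitted with edgeR 4.0.16 in R 4.3.3 (TMM scaling, glmQLFit and glmQLFTest, no filter on low counts, 10 groups in 1 model, 16 comparisons). DESeq2 1.42.0, other scalings, a filter, other thresholds, the compared groups only and leaving out each library were alternatives. The test was checked on simulated counts. The SE is the log2 fold change divided by the square root of F, and 95% intervals use a normal multiple of it. Log2 CPM used a prior count of 2.

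Named genes were all members, up to 2 increases and 2 decreases of each of 6 pathway lists called in Dox at 24 h, and the 3 most similar genes of each member. The members and lists were chosen with earlier results of these data known. Top2b was not analysed here, so the planned share of Top2a in type II counts was not computed.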

Additional observations from a re-analysis of the deposited data

Results flagged for a closer look

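Among 70 sets of libraries (7 genes in 10 groups), 4 held a library far from the rest by Dixon's test, where chance flags about 1 set in 20. Top1 reached 105 CPM in 1 library of Dox at 24 h, the next being 89.6, and 88.3 CPM in 1 library of 5FU at 24 h. Top3a was at 13.0 CPM in 1 library of DMSO1 at 6 h, the next being 16.3, and Top3b at 34.5 CPM in 1 library of DMSO1 at 24 h, the next being 38.8.

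The effect of a drug differed between 6 and 24 h in 8 cases, each tested as an interaction in the edgeR model. For Dox the 24 h minus 6 h differences were 1.08 for Tdp1, -0.30 for Top1, 0.89 for Top1mt, -0.43 for Top2a and 0.32 for Top3a on the log2 scale. The Top3a call was lost in the fit of the compared groups only (0.31, edgeR FDR = 0.015) and without Dox 6 h library 3 (0.28) or 7 (0.30) or DMSO2 6 h library 4 (0.29) or 5 (0.30). The Top2a call was lost without Dox 24 h library 1, 2, 4 or 7, and the Top1 and Top2a calls with library size only. For 5FU they were 0.44 for Top1 and 1.12 for Top2a, and for Ace 2.18 for Top2a.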

How the results depend on the processing

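No paired analysis was possible because the columns of the table carry group names without replicate numbers. The share of Top2a in type II counts and its 3 alternatives were not run.

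Requiring a log2 fold change of at least 1 left 1 of the 7 genes called in Dox at 6 h, 2 in Dox at 24 h, 0 in 5FU at 6 h, 0 in Ace at 6 h, 1 in Ace at 24 h, 0 between the controls at 6 h, 1 over time in the controls, 1 for each difference between times in Dox and in 5FU, 1 and 2 for Dox minus 5FU at 6 and 24 h, and 1 and 2 for Dox against Ace. At an FDR below 0.1, 3 were called in 5FU at 24 h, 1 between the controls at 24 h and 2 for the Ace time difference. The shares of all genes that pass these other thresholds are not given here. The shares given above, for an FDR below 0.01 alone, do not apply to these counts. A fit of the compared groups only called 1 in 5FU at 24 h (Top1). Between the controls at 6 h, DESeq2's size factors and the compared groups only gave 1 and library size only gave 0, and at 24 h DESeq2, library size only and filterByExpr each gave 1. Library size only gave 3 for the Dox time difference, with Top2a at -0.23. Leaving out 1 library gave 0 to 2 between the controls at 6 h and 0 to 1 at 24 h, and 4 to 5 for the Dox time difference, where the Top2a call was lost without Dox 24 h library 1, 2, 4 or 7 (-0.40, -0.40, -0.40 and -0.36). The causes were not tested.

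Of 2023 values that left out a library, 69 changed a call and 0 turned the sign of a called value. Signs turned in 46 values of 12 results, none past the threshold before or after. Library size only gave -0.034 for Tdp2 in 5FU at 6 h, 0.043 for Top3b between the controls at 24 h, 0.012 for Top1mt and 0.010 for Top3b in the time differences of 5FU and Ace, and 0.028 for Top3b in Dox minus 5FU at 24 h, where DESeq2 and its size factors gave 0.013 and 0.014. The filterByExpr fit gave 0.0050 for Top3a in Ace at 6 h and 0.0060 for Top3b between the controls at 24 h, where the compared groups only gave 0.0096. Top1 in Ace at 24 h was at -0.00018 with DESeq2 and -1.7e-07 with its size factors. The ranges over fits that left out a library were -0.026 to 0.090 for Tdp2 in Dox at 24 h, -0.015 to 0.052 for Top3a in 5FU at 24 h, -0.047 to 0.023 for Top3a in Ace at 6 h, -0.013 to 0.039 for Top1 in Ace at 24 h, -0.050 to 0.020 for Tdp1 between the controls at 6 h, -0.011 to 0.046 for Top1 and -0.014 to 0.029 for Top3b between the controls at 24 h, -0.014 to 0.090 for Top3b in the Dox time difference, and -0.039 to 0.018 for Top3b in Dox minus 5FU at 24 h.

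With library size only, the median log2 fold change of all genes moved from 0.0030 to -0.15 in Dox at 6 h, from 0.065 to 0.27 for the Dox time difference and from 0.014 to -0.11 for Dox against Ace at 6 h. Genes called higher and lower became 3064 and 5998 in place of 4589 and 4760 in Dox at 6 h, 2478 and 4258 in place of 3408 and 3563 in 5FU at 6 h, 3449 and 2166 in place of 2645 and 2773 in Ace at 24 h, 723 and 1720 in place of 1436 and 961 between the controls at 6 h, 71 and 17 in place of 20 and 43 between them at 24 h, 6234 and 3379 in place of 4946 and 4478 for the Dox time difference, 1402 and 417 in place of 812 and 882 for that of Ace, and 3221 and 5562 in place of 4459 and 4575 for Dox against Ace at 6 h. The compared groups only gave 885 and 680 between the controls at 6 h, 3 and 14 at 24 h, and 1263 and 1421 for the Ace time difference, and DESeq2 gave 62 and 119 between the controls at 24 h.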
